A study of Homo sapiens with 12 samples.

Results

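A set of 10 genes of the Notch pathway is described across the libraries of a prefoldin knockdown experiment. They are the target genes HES1, HES4, HEY1 and NRARP, the ligands JAG1 and DLL1, the receptor-modifying enzyme LFNG, and the receptors NOTCH1, NOTCH2 and NOTCH3. They were chosen by name as pathway members, with earlier results of these data known. Each was found by its Ensembl identifier in the count tables. The 10 genes are 10 of 58051 listed, and all 10 were among the 27915 genes with enough counts to test. The cells were HCT116, an established line from a human colorectal carcinoma. Cells received a small interfering RNA (siRNA) against PFDN2 (siPFDN2), against PFDN5 (siPFDN5) or a control siRNA (siControl), and 24 h later they were starved of serum for 48 h. They were taken either at the end of starvation (before serum) or 90 min after serum was added back (after serum), which gave 6 groups of 2 libraries. All 6 groups were therefore starved, and the design has no cells grown in serum throughout. The labels do not say whether the 2 libraries of a group came from separate cultures, so p-values measure the spread between these libraries, which may be technical.

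Notch receptors are membrane proteins that bind DLL and JAG ligands on neighbouring cells. Binding lets ADAM proteases and then the γ-secretase complex cut the receptor, and the released intracellular part joins the DNA-binding protein RBPJ and a MAML coactivator to switch on genes such as those of the HES and HEY families. In the intestinal epithelium the pathway maintains crypt progenitors and holds cells back from the secretory lineage, and it is active in many colon carcinomas. Prefoldin, of which PFDN2 and PFDN5 are subunits, is a cochaperone that delivers newly made actin and tubulin to the chaperonin TRiC.

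Libraries held between 59784425 and 136504590 counts over whole gene bodies. CPM are counts scaled to the size and TMM factor of each library. PFDN2 in the siPFDN2 groups was at 70.9% of the siControl level before serum (8.02 against 11.3 CPM) and 50.8% after it (9.10 against 17.9 CPM). With all 12 libraries the adjusted p (Benjamini-Hochberg) was 0.44 and 0.77 by edgeR, and 0.19 and 0.0038 by DESeq2. In the siPFDN5 groups PFDN2 was at 1.89 times siControl before serum and 1.45 times after it (edgeR, adjusted p = 0.10 and 0.11). DESeq2 gave adjusted p = 0.00026 and 0.03. PFDN5 in siPFDN5 was at 58.4% before serum but at 95.9% after it, so these last libraries are called the libraries labelled siPFDN5 after serum. Replicate 2 of siPFDN2 before serum stood apart from its partner: its log2 abundance followed the G+C content of genes with a Spearman rho of 0.69, against −0.28 to 0.13 in the other libraries. The SD of the log2 difference between the 2 replicates was 0.681 in that group and 0.116 to 0.301 in the others. Epithelial markers (EPCAM, CDH1, KRT8, KRT18, KRT19) summed to between 1831 and 2870 CPM. Of the intestinal markers, VIL1 and CDX2 were present and CDX1 and LGALS4 stayed below 1 CPM in all 12 libraries. Fibroblast markers (COL1A1, COL3A1, PDGFRB) summed to 4.19 to 5.53 CPM before serum, apart from 16.1 in replicate 2 of siPFDN2, and to 7.60 to 13.8 after it, with COL3A1 and PDGFRB below 1 CPM throughout. Their part in the serum responses was not tested.

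Members with G+C-rich transcripts had high values in that library. The ratio of replicate 2 to replicate 1 in siPFDN2 before serum was 2.60 for HES4 (73.9% G+C in its longest transcript), 2.65 for NOTCH3 (63.1%), 2.59 for NOTCH1 (62.9%) and 2.11 for NRARP (67.3%). It was 1.73 for DLL1 (58.3%) and 1.48 for LFNG (62.7%), though LFNG also had a ratio of 1.61 in siControl after serum. In contrast the ratio was 1.08 for HES1, 1.03 for JAG1 and 1.05 for NOTCH2, whose transcripts hold 49.9%, 49.6% and 49.4% G+C. HEY1 (47.3%), with 7 to 17 counts per library, had a ratio of 0.35. Results are therefore given from the fit of all 12 libraries and, where the call or the value differed, also without that library or with a trend on G+C content removed from every library.

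**Figure D1:**
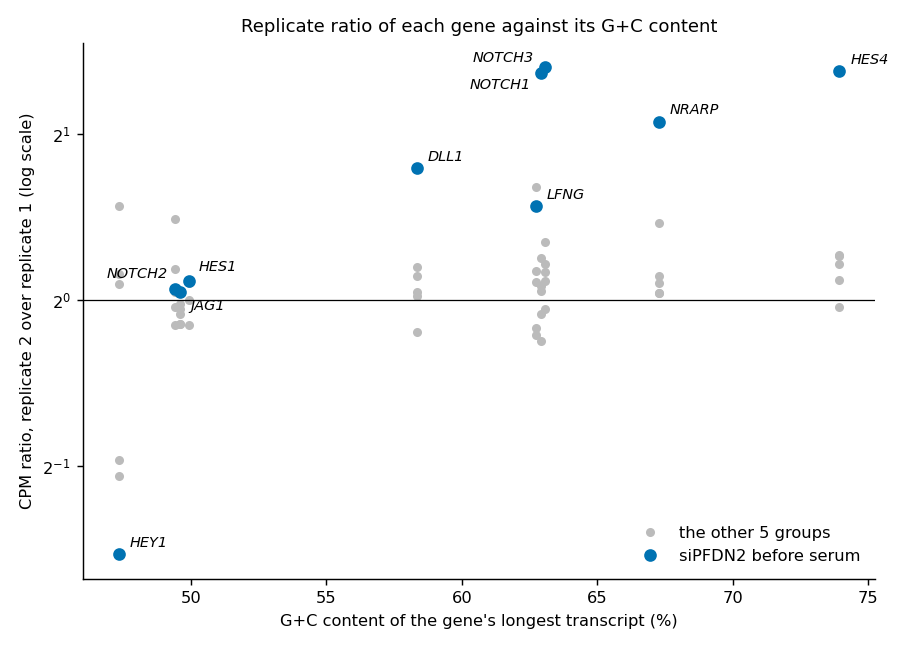
Ratio of CPM in replicate 2 to replicate 1 (log axis) against the G+C content of the longest transcript for each of the 10 genes, with siPFDN2 before serum in blue and the other 5 groups in grey. In siPFDN2 before serum the 6 genes above 58% G+C have ratios from 1.48 to 2.65, and HES1, JAG1 and NOTCH2 lie between 1.03 and 1.08. HEY1 lies at 0.35.

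On the scale of exon CPM for each kilobase of exon, which allows genes to be compared, the mean over the 12 libraries was highest for NOTCH2 (10.8) and JAG1 (9.26), followed by HES4 (9.04) and HES1 (6.29). NOTCH3 (4.77) and NOTCH1 (4.10) came next, then LFNG (2.73), NRARP (2.13) and DLL1 (0.852). HEY1, a target that encodes a partner of the HES repressors, was close to absent at 0.054, with 7 to 17 counts per library, and no change in it can be read at this depth. Several neighbours in this order are not separated by their spread: NOTCH2 exceeded JAG1 in 8 of 12 libraries, JAG1 exceeded HES4 in 7, and HES4 exceeded HES1 in 9. NOTCH3 exceeded NOTCH1 in 11 libraries, and NOTCH1 exceeded LFNG in all 12. LFNG exceeded NRARP in 8 only, and NRARP exceeded DLL1 in all 12. NOTCH2 has near-identical partial copies (the NOTCH2NL genes), so its level is uncertain.

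**Figure D2:**
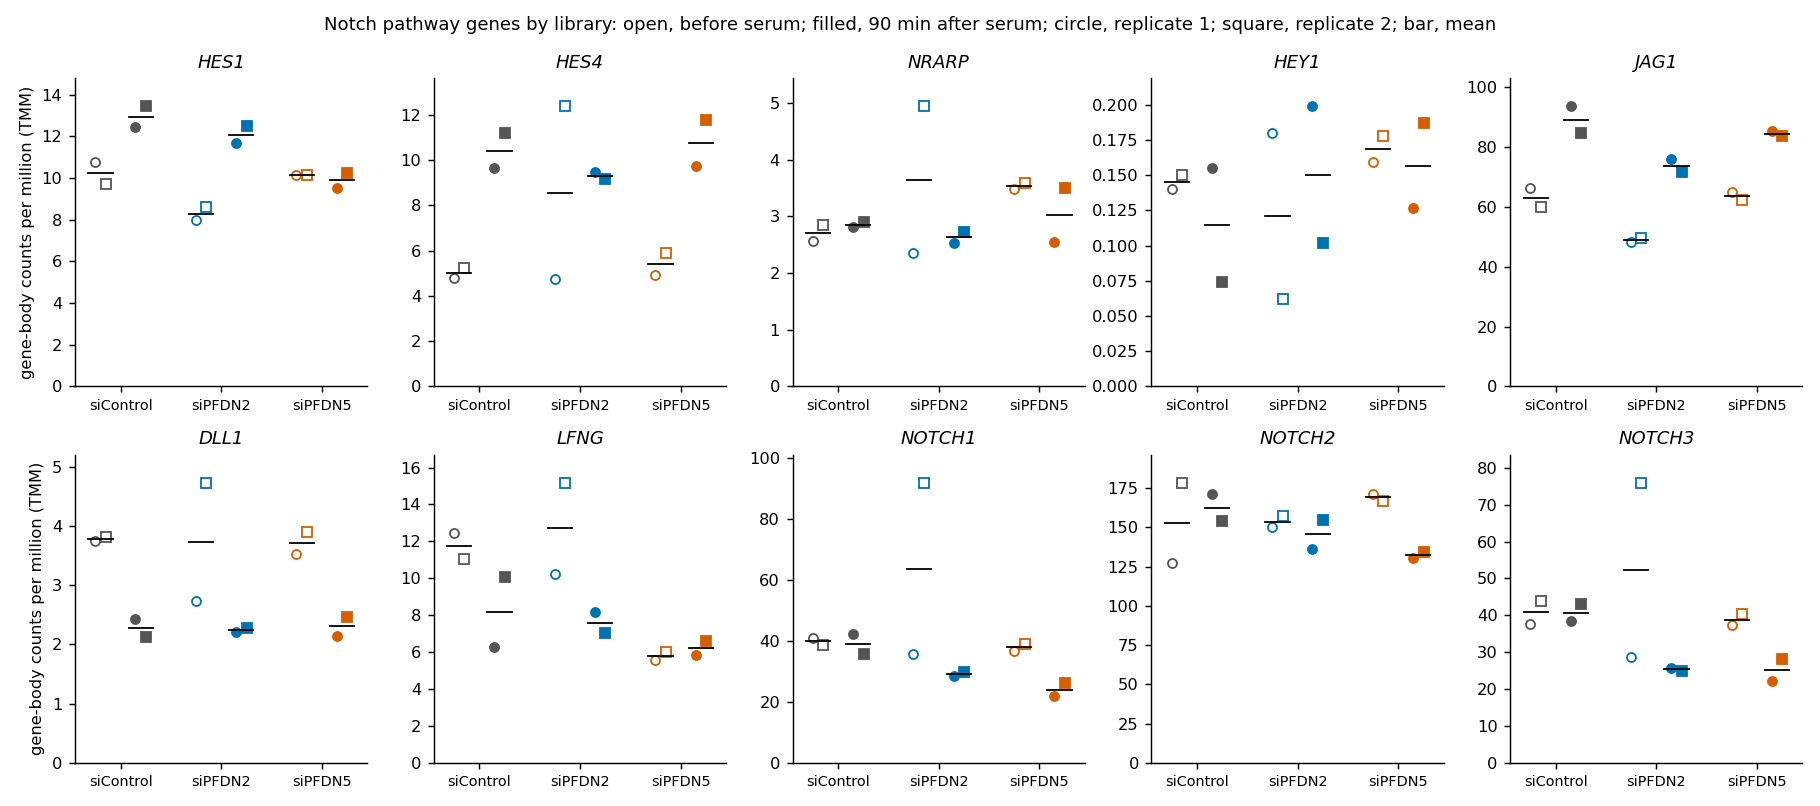
Abundance of each gene in TMM-scaled CPM (linear axis from 0) by siRNA, before serum (open) and 90 min after serum (filled), with replicate 1 as a circle, replicate 2 as a square and the group mean as a bar. JAG1 is higher and DLL1 lower in all 6 libraries after serum than in any of the 6 before it, and replicate 2 of siPFDN2 before serum is the top point for HES4, NRARP, DLL1, LFNG, NOTCH1 and NOTCH3.

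After serum 4 members differed when the responses of the 3 siRNAs were averaged: JAG1, HES1 and HES4 rose and DLL1 fell (edgeR quasi-likelihood test, Benjamini-Hochberg adjusted p under 0.05). In bulk RNA, fewer cells that express a gene and less RNA per cell cannot be told apart. Of all genes tested, 14.9% were called in this comparison. A further 3 members reached an unadjusted p under 0.05 without being called. The median log2 fold change was −0.16 over the 10 members and −0.03 over all genes. Without replicate 2 of siPFDN2 before serum, 6 members were called (27.5% of all genes), with NOTCH1 and NOTCH3 added on the falling side. With the G+C trend removed the same 6 members were called (28.4% of all genes), and DESeq2 called 6 as well (18.1% of all genes). With replicate 1 of siPFDN2 before serum left out instead, 8 were called, beside 47.3% of all genes.

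Target genes were examined first. HES1 and HES4 encode basic helix-loop-helix repressors that are direct targets of the Notch intracellular domain, and NRARP encodes an ankyrin-repeat protein that is induced by Notch and limits its signal. HES1 lies at chr3:194136145-194138732 (plus strand), HES4 at chr1:998962-1000172 (minus strand) and NRARP at chr9:137300482-137302251 (minus strand) in GRCh38. Their promoters are shown because HES1 and HES4 were called in the averaged serum response and NRARP was not. RBPJ binds DNA at a site with the core TGGGAA, which is in capitals in the sequences below. Each covers 250 bases before to 50 bases after the gene's start, 5′ to 3′ on the gene's strand, from RefSeq (GRCh38.p14): chr3:194135898-194136197 for HES1, chr1:1000048-1000347 for HES4 and chr9:137302222-137302521 for NRARP.
HES1: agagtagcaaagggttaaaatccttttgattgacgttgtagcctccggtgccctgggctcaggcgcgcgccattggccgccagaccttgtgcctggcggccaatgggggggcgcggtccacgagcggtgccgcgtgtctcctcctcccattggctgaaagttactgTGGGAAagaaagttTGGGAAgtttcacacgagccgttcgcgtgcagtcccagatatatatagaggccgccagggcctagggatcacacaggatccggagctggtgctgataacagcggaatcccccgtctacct
HES4: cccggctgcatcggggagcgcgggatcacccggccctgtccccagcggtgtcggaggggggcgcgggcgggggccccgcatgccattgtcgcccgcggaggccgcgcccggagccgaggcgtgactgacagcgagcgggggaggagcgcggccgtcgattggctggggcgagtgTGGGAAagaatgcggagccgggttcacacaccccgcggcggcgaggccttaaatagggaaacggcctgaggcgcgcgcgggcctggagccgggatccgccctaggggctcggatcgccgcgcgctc
NRARP: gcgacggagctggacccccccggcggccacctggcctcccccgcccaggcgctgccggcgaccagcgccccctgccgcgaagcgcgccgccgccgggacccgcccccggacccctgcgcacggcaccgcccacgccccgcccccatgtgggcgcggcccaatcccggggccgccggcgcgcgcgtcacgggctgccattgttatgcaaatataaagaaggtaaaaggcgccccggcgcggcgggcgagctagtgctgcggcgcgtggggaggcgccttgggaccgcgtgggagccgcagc

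TGGGAA, searched on both strands, occurs at 2 positions in the HES1 promoter, beginning 84 and 70 bases before the start, and at 1 position in the HES4 promoter, 76 bases before the start. NRARP has no match in this window. Among all 35116 RefSeq promoters of the same length, 24.0% hold the motif at least once and 3.80% at least 2 times. Of the other members in the RefSeq table, JAG1, which was called in the averaged serum response, had no match. NOTCH1, NOTCH2 and NOTCH3 had no match either. LFNG, which was not called in that comparison, had 1 in each of its 2 listed promoters. HEY1 and DLL1 were not in the table. A match describes the letters of a window and says nothing of binding in these cells.

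Under siControl, HES4 had 4.80 and 5.23 CPM before serum, then 9.64 and 11.2 CPM once serum was back. The siPFDN5 values were 4.92 and 5.91 before serum, with 9.74 and 11.8 in the libraries labelled siPFDN5 after serum. The siPFDN2 values were 4.76 and 12.4 before serum, with 9.46 and 9.17 after it. The 12.4 CPM of replicate 2 of siPFDN2 before serum is the highest value of the gene. The other 5 libraries before serum lie below all 6 after serum, and the share of all genes that do so was not counted. Averaged over the siRNAs, HES4 rose by 0.72 on the log2 scale (SE 0.19, adjusted p = 0.031, edgeR). Without that library the averaged rise was 1.01 (SE 0.08, adjusted p = 9.6e-07), which is a 2.01-fold difference. The averaged call was lost in 12 of 23 alternative settings. In single siRNAs of the full fit no HES4 response was called, with log2 fold changes of 1.05 in siControl (adjusted p = 0.16), 0.12 in siPFDN2 (0.83) and 0.99 in siPFDN5 (0.077). The siPFDN2 value turned to −0.11 when libraries were scaled by their size only. Once replicate 2 of siPFDN2 before serum was left out all 3 responses were called, at 1.05 (SE 0.13) in siControl, 0.97 (SE 0.17) in siPFDN2 and 1.00 (SE 0.13) in siPFDN5. With replicate 1 of siPFDN2 before serum left out instead, HES4 in siPFDN2 fell by 0.40 (adjusted p = 0.043), in a fit that called 48.6% of all genes, so that the direction in siPFDN2 depends on which of the 2 libraries is kept.

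The siControl pair held 10.8 and 9.70 CPM of HES1 before serum, and the pair after serum 12.4 and 13.4 CPM. With siPFDN2 the 2 starved libraries gave 7.96 and 8.61, and the 2 with serum 11.7 and 12.5. With siPFDN5 the starved libraries gave 10.2 in both libraries, and those labelled siPFDN5 after serum 9.52 and 10.2. Thus all 4 libraries after serum under siControl and siPFDN2 lie above every library before serum, and the 2 labelled siPFDN5 after serum do not. That split was drawn after the values were seen, and the share of all genes that show it was not counted. Averaged over the siRNAs HES1 rose by 0.28 (SE 0.08, adjusted p = 0.044, edgeR), and the call was lost in 15 of 23 alternative settings. In the full fit the responses were 0.34 in siControl (adjusted p = 0.35), 0.54 in siPFDN2 (0.065) and −0.04 in siPFDN5 (0.88), none of them called. Without replicate 2 of siPFDN2 before serum HES1 rose by 0.34 in siControl (adjusted p = 0.047) and by 0.60 in siPFDN2 (0.013), and was at −0.03 in siPFDN5 (0.82). The difference between the siPFDN5 and siControl responses was −0.38 (SE 0.20, adjusted p = 0.32) in the full fit and −0.37 (0.074) without that library, and was called in neither.

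NRARP measured 2.57 and 2.85 CPM under siControl in starved cells, against 2.81 and 2.90 CPM with serum. In siPFDN2 it was at 2.35 and 4.94 before serum and at 2.53 and 2.73 after it. In siPFDN5 it was at 3.49 and 3.58 before serum and at 2.54 and 3.50 in the libraries labelled siPFDN5 after serum. Libraries before and after serum overlap throughout. The averaged log2 fold change was −0.21 (SE 0.17, adjusted p = 0.42), and its sign turned to 0.06 with the G+C trend removed and to 0.01 without replicate 2 of siPFDN2 before serum. HEY1 ranged from 0.062 to 0.180 CPM before serum and from 0.074 to 0.199 after it.

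The estimates per transcript separate 4 annotated HES4 transcripts. HES4-203, annotated as retaining an intron, held 42.0% and 39.4% of the HES4 estimate in siControl before serum and 56.5% and 58.0% after it. In siPFDN2 its share was 46.6% and 42.4% before serum and 61.1% and 58.9% after it. In siPFDN5 it was 41.1% and 43.6% before serum and 60.4% and 57.1% in the libraries labelled siPFDN5 after serum. All 6 shares after serum lie above all 6 before it, replicate 2 of siPFDN2 before serum included. The protein-coding HES4-201 showed the reverse, with 31.4% to 45.5% before serum and 21.9% to 26.7% after it. These are shares of a gene whose own level differed, with a mean of 5.01 CPM before serum and 10.4 after it in siControl. A lower share therefore need not mean less HES4-201. Of 20 member transcripts with at least 1% of their gene's estimate, in genes with several transcripts and an estimate of at least 100 in every library, these were the only ones without overlap, 1 in each direction. Over all such transcripts 0.987% lay higher and 0.987% lower without overlap. The 2 transcripts were named after their values were seen, and the estimates divide reads that the transcripts share, so the shares are a description with no test.

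**Figure D3:**
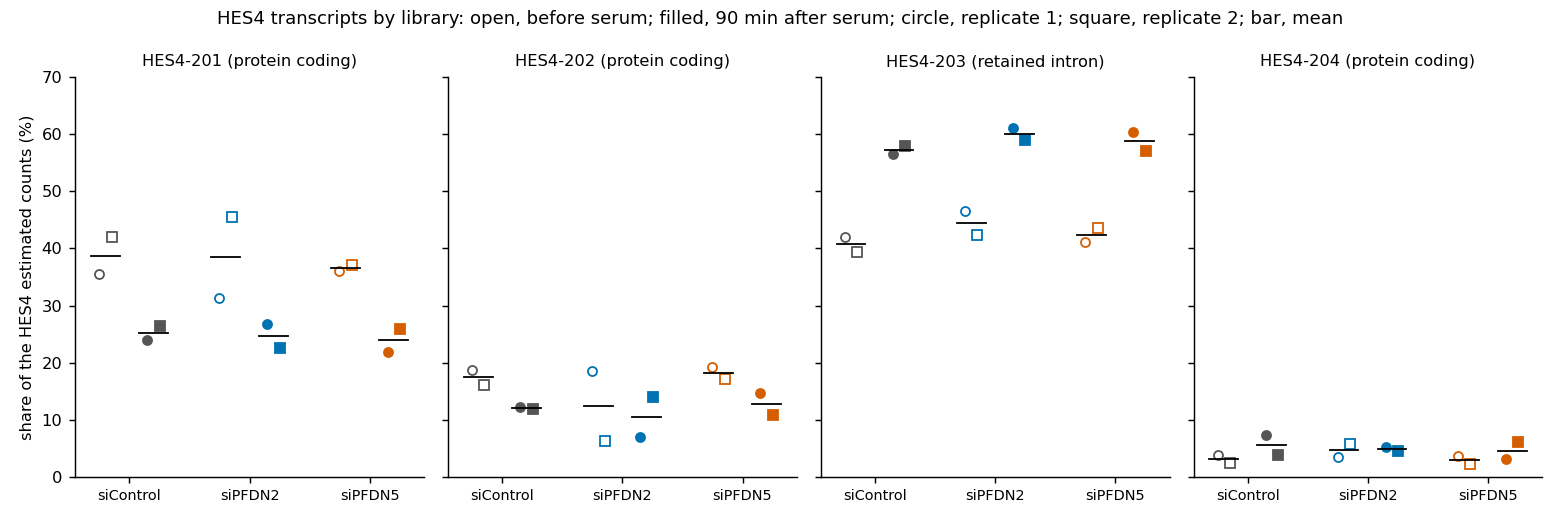
Share of the HES4 estimated counts (percent, linear axis) held by each annotated HES4 transcript, by siRNA, before serum (open) and 90 min after serum (filled), with circles and squares for replicates 1 and 2 and bars for group means. HES4-203 lies between 39.4% and 46.6% before serum and between 56.5% and 61.1% after it.

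The ligands moved in opposite directions after serum. JAG1 encodes a Jagged ligand and DLL1 a Delta-like ligand. JAG1 lies at chr20:10637684-10674107 and DLL1 at chr6:170282206-170306565, both on the minus strand in GRCh38. Under siControl, JAG1 had 66.3 and 59.9 CPM before serum, then 93.5 and 84.7 CPM once serum was back. The siPFDN2 values were 48.2 and 49.7 before serum, with 76.0 and 71.5 after it. The siPFDN5 values were 64.8 and 62.4 before serum, with 85.2 and 83.7 in the libraries labelled siPFDN5 after serum. All 6 libraries after serum lie above all 6 before it, as they did for 4.61% of all genes. JAG1 rose by 0.50 on average (SE 0.08, adjusted p = 0.0014, edgeR), a 1.41-fold difference, and was called in all 24 alternatives run, with values from 0.36 to 0.65.

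In siPFDN2 JAG1 was the single member called, with a rise of 0.59 (SE 0.13, adjusted p = 0.035) in a comparison that called 3.26% of all genes, and a further 5 members had an unadjusted p under 0.05. That call was lost in 11 of 25 alternatives. In siControl, where 2.87% of all genes were called, JAG1 had 0.50 (adjusted p = 0.077) and no member was called by edgeR, with 4 at an unadjusted p under 0.05. In siPFDN5, where 12.2% of all genes were called, JAG1 had 0.41 (adjusted p = 0.062) and again no member was called, with 3 at an unadjusted p under 0.05. DESeq2 called 2 members in siControl (4.31% of all genes), 6 in siPFDN2 (11.2%) and 2 in siPFDN5 (16.4%), JAG1 in each. Leaving out replicate 2 of siPFDN2 before serum, the members called were 4 in siControl (9.95% of all genes), 3 in siPFDN2 (4%) and 5 in siPFDN5 (36.3%). Removing the G+C trend gave 3 (6.34%), 3 (6.72%) and 5 (29.3%), with HES4 and JAG1 in each of the 3.

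The siControl pair held 3.75 and 3.81 CPM of DLL1 before serum, and the pair after serum 2.43 and 2.13 CPM. With siPFDN2 the 2 starved libraries gave 2.73 and 4.73, and the 2 with serum 2.20 and 2.27. With siPFDN5 the starved libraries gave 3.52 and 3.89, and those labelled siPFDN5 after serum 2.15 and 2.47. All 6 libraries after serum lie below all 6 before it, as they did for 2.97% of all genes. DLL1 fell by 0.72 on average (SE 0.14, adjusted p = 0.0064, edgeR), and by 0.57 without replicate 2 of siPFDN2 before serum (SE 0.09, adjusted p = 0.00036). The averaged call was lost in 1 of 24 alternatives, that of intronic counts (−0.47, adjusted p = 0.05002, edgeR). In the full fit the DLL1 responses were −0.73 in siControl (adjusted p = 0.17), −0.74 in siPFDN2 (0.10) and −0.68 in siPFDN5 (0.086), none of them called. Without replicate 2 of siPFDN2 before serum they were −0.74 in siControl, −0.29 in siPFDN2 and −0.68 in siPFDN5. The siPFDN2 value of that fit rests on replicate 1 alone before serum. DLL1 overlaps FAM120B, a gene on the opposite strand, and counting used no strand, so reads of the 2 genes cannot be told apart where they overlap.

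**Figure D4:**
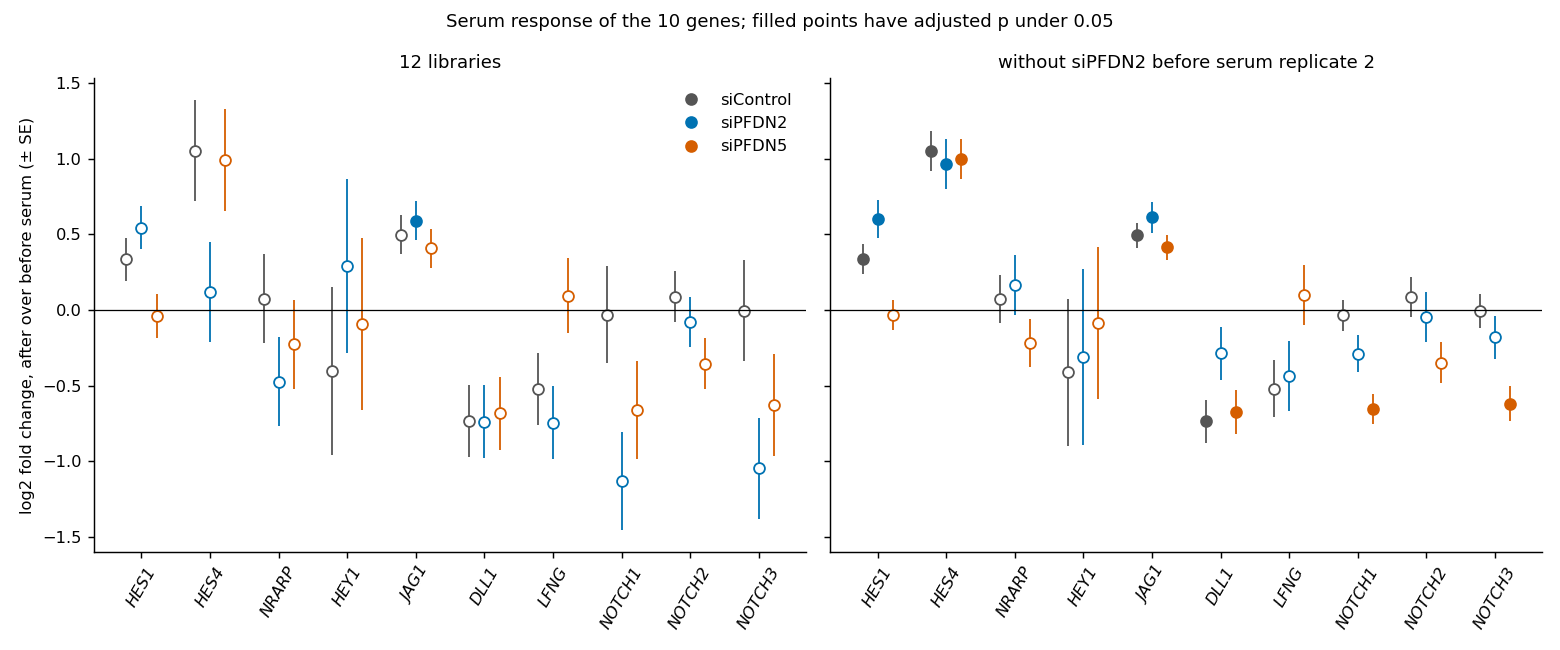
Log2 fold change of each gene after over before serum, with its SE, in siControl, siPFDN2 and siPFDN5, in the edgeR fit of 12 libraries and in the fit without replicate 2 of siPFDN2 before serum; filled points have an adjusted p under 0.05. JAG1 in siPFDN2 is the only filled point on the left, and HES4 and JAG1 are filled for all 3 siRNAs on the right.

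LFNG encodes lunatic fringe, which extends O-fucose sugars on Notch receptors in the Golgi and thereby alters their response to ligands. It lies at chr7:2512529-2529177 on the plus strand. LFNG measured 12.4 and 11.1 CPM under siControl in starved cells, against 6.27 and 10.1 CPM with serum. In siPFDN2 it was at 10.3 and 15.2 before serum and at 8.15 and 7.05 after it. In siPFDN5 it was at 5.59 and 6.03 before serum and at 5.83 and 6.58 in the libraries labelled siPFDN5 after serum. The 4 siPFDN5 libraries thus lie close together, and both before serum lie below the 2 siControl libraries before serum. Averaged over siRNAs its serum response was −0.39 (SE 0.14, adjusted p = 0.083, edgeR) and was not called.

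Between siPFDN5 and siControl before serum the log2 fold change of LFNG was −1.02 (SE 0.25). It was not called in the full fit (adjusted p = 0.21), in which 0.00716% of all genes were called, no member was called and LFNG alone of the members had an unadjusted p under 0.05. Without replicate 2 of siPFDN2 before serum, a library outside this comparison that enters the shared estimate of spread, LFNG fell by 1.02 with an adjusted p of 0.018 (SE 0.19) and 6.96% of all genes were called. After removal of the G+C trend LFNG fell by 0.90 (SE 0.18, adjusted p = 0.048), beside 0.652% of all genes. DESeq2 also called LFNG alone of the members (log2 fold change −1.02, adjusted p = 0.019), beside 1.17% of all genes. Across the 25 alternatives the value stayed between −1.28 and −0.90 and was called in 6, among them the fit without replicate 1 of siPFDN2 before serum. After serum the groups overlapped, at 6.27 and 10.1 CPM in siControl against 5.83 and 6.58 in the libraries labelled siPFDN5 after serum.

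The receptors followed. NOTCH1, NOTCH2 and NOTCH3 encode 3 of the Notch receptors, and lie at chr9:136494444-136545862, chr1:119911553-120069626 and chr19:15159038-15200981, all on the minus strand. Under siControl, NOTCH1 had 41.1 and 38.8 CPM before serum, then 42.4 and 35.8 CPM once serum was back. The siPFDN2 values were 35.6 and 92.0 before serum, with 28.6 and 29.7 after it. The siPFDN5 values were 36.8 and 39.1 before serum, with 21.9 and 26.1 in the libraries labelled siPFDN5 after serum. The 4 libraries after serum under the 2 prefoldin siRNAs lie below all 6 before serum, and the 2 siControl libraries after serum do not. These 4 were grouped after their values were seen, and the share of all genes with this pattern was not counted. PFDN5 averaged 95.9% of siControl in the 2 of them labelled siPFDN5.

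NOTCH3 showed a like set of values. The siControl pair held 37.7 and 43.9 CPM of the gene before serum, and the pair after serum 38.4 and 43.1 CPM. With siPFDN2 the 2 starved libraries gave 28.7 and 75.9, and the 2 with serum 25.8 and 24.9. With siPFDN5 the starved libraries gave 37.3 and 40.3, and those labelled siPFDN5 after serum 22.1 and 28.1. Again the 4 libraries after serum under siPFDN2 and siPFDN5 lie below all 6 before serum. This grouping too was made after the values were seen, and its share over all genes was not counted.

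In the full fit neither receptor was called on average, with −0.61 for NOTCH1 (SE 0.19, adjusted p = 0.0503) and −0.56 for NOTCH3 (SE 0.19, adjusted p = 0.074). Without replicate 2 of siPFDN2 before serum, averaged values moved by over 1.5 times, to −0.33 for NOTCH1 (adjusted p = 0.0017) and −0.27 for NOTCH3 (0.014), and both were called. In siPFDN2 the full fit gave −1.13 for NOTCH1 (adjusted p = 0.08) and −1.05 for NOTCH3 (0.098), both called by DESeq2. Without that library these values were −0.29 (0.28) and −0.18 (0.63), and neither was called. In the same fit NOTCH1 fell by 0.65 (SE 0.10, adjusted p = 0.0004) and NOTCH3 by 0.62 (SE 0.12, adjusted p = 0.0015) in siPFDN5, whereas in siControl the values were −0.03 (0.87) and −0.01 (0.98). The difference of the siPFDN5 response from the siControl response was called for both, at −0.62 for NOTCH1 (adjusted p = 0.013) and −0.61 for NOTCH3 (0.022), beside 21.8% of all genes. In the full fit the same differences were −0.63 (SE 0.46, adjusted p = 0.47) and −0.62 (SE 0.47, adjusted p = 0.49), no member and 0% of all genes were called, and no member had an unadjusted p under 0.05. With the G+C trend removed 8.69% of all genes were called for this difference and no member was. DESeq2 likewise called no member, beside 6.32% of all genes.

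NOTCH2 measured 127 and 178 CPM under siControl in starved cells, against 171 and 154 CPM with serum. In siPFDN2 it was at 150.0 and 157 before serum and at 136 and 155 after it, and in siPFDN5 it was at 172 and 167 before serum and at 130.2 and 135 in the libraries labelled siPFDN5 after serum. The 2 siControl libraries before serum are 1.40 times apart. Libraries before and after serum overlap under siControl and siPFDN2, while under siPFDN5 both after serum lie below both before it. The siPFDN5 response was −0.35 (SE 0.17, adjusted p = 0.18) and was called in 1 of 24 alternatives, the fit of the 4 siPFDN5 libraries alone (−0.36, adjusted p = 0.00022), in which 54.5% of all genes were called. The averaged serum response was −0.11 (SE 0.10, adjusted p = 0.43), and it was 0.00 when both libraries labelled siPFDN5 after serum were left out.

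Comparing the prefoldin siRNAs with siControl at the same time, no member was called by edgeR in the full fit of 12 libraries. Before serum, siPFDN2 called 0% of all genes, and 2 members had an unadjusted p under 0.05. JAG1 was at 48.2 and 49.7 CPM there, below both siControl libraries at 66.3 and 59.9 (log2 fold change −0.37, SE 0.13, adjusted p = 0.44). DESeq2 called no member and 0.0967% of all genes. With the G+C trend removed 0.0215% of all genes were called, and without replicate 2 of siPFDN2 before serum 0.0241%, no member in either. Leaving out replicate 1 of siPFDN2 before serum instead gave 5 members, beside 41.8% of all genes. After serum, siPFDN2 called 0% of all genes, no member had an unadjusted p under 0.05, and DESeq2 called no member and 0.00716% of all genes. NOTCH3 was at −0.69 there (SE 0.33, adjusted p = 0.77), with 25.8 and 24.9 CPM in siPFDN2 against 38.4 and 43.1 in siControl, and it was called without replicate 2 of siPFDN2 before serum (−0.68, SE 0.12, adjusted p = 0.033), beside 0.568% of all genes. With the G+C trend removed no member was called, beside 0.00358% of all genes.

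Between the libraries labelled siPFDN5 after serum and siControl after serum, 0.00358% of all genes were called in the full fit, no member was, and 1 member had an unadjusted p under 0.05. DESeq2 called no member beside 6.96% of all genes. NOTCH1 was at −0.70 (SE 0.32, adjusted p = 0.24), NOTCH3 at −0.70 (SE 0.33, adjusted p = 0.25) and HES1 at −0.39 (SE 0.14, adjusted p = 0.15). After removal of the G+C trend NOTCH1 fell by 0.67 (adjusted p = 0.024) and NOTCH3 by 0.67 (0.03), beside 13.5% of all genes. The fit without replicate 2 of siPFDN2 before serum called 3 members: NOTCH1 fell by 0.70 (adjusted p = 0.00073), NOTCH3 by 0.69 (0.0017) and HES1 by 0.38 (0.015), beside 23.9% of all genes. PFDN5 RNA was at 95.9% of siControl in these libraries and at 58.4% in siPFDN5 before serum. The part of PFDN5 loss in these differences was not tested. For the difference between the siPFDN2 and siControl serum responses no member was called and 0% of all genes were, 2 members had an unadjusted p under 0.05, and DESeq2 called no member beside 0.00716% of all genes. The HES4 value of this difference was −0.94 in the full fit and −0.08 without replicate 2 of siPFDN2 before serum, while 4 members were called without replicate 1 of that group, beside 37.7% of all genes.

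Gene-body counts minus exon counts give intronic counts, which unspliced RNA contributes to. Across a library they made up 14.8% to 25.9% of gene-body counts: in siPFDN5 the share was 22.8% and 25.9% before serum and 17.2% and 14.8% in the libraries labelled siPFDN5 after serum, while in siControl it was 15.0% and 17.3% before serum and 20.6% and 16.2% after it. Intronic counts were tested in their own fit with their own scaling, so the response of a gene is relative to introns at large. NRARP has a single annotated exon, and the exons of HES4 cover 1118 of its 1211 bases. HES4 and HEY1 had no intronic counts and HES1 had 1 to 8 per library, so the targets were not examined in this way.

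NOTCH3 intronic counts were 134 and 141 in siControl before serum and 51 and 78 after it. In siPFDN2 they were 95 and 233 before serum and 26 and 39 after it, and in siPFDN5 they were 73 and 106 before serum and 20 and 45 in the libraries labelled siPFDN5 after serum. On the CPM scale of gene-body counts, all 6 libraries after serum lie at 0.281 to 0.608, below the 1.00 to 2.07 before serum. The share of all genes with introns that separate in this way was not counted. The intronic signal of NOTCH3 fell in all 3 siRNAs, by 1.32 in siControl (SE 0.33, adjusted p = 0.016), by 1.61 in siPFDN2 (SE 0.35, adjusted p = 0.0067) and by 1.06 in siPFDN5 (SE 0.35, adjusted p = 0.035). In these fits 8.63%, 11.8% and 27.8% of the genes with introns were called, and on average NOTCH3 fell by 1.33 (adjusted p = 9.4e-05), beside 29.3%. In siControl the gene-body value of NOTCH3 was −0.00 (SE 0.33, adjusted p = 1), and the intronic part, 1.34% to 3.82% of its counts in the 4 siControl libraries, was lower after serum while no change of the total was called.

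Intronic counts of NOTCH1 fell by 0.68 on average (SE 0.17, adjusted p = 0.006) and by 1.37 in siPFDN2 (SE 0.29, adjusted p = 0.0065), a group that includes the 1931 intronic counts of replicate 2 before serum. The intronic values in siControl and siPFDN5 were −0.60 (adjusted p = 0.24) and −0.08 (0.86). On the CPM scale of gene-body counts NOTCH1 intronic values were 7.08 and 6.72 in siControl before serum, then 5.19 and 4.68. They were 6.93 and 17.1, then 4.57 and 3.54, in siPFDN2, and 6.13 and 5.82, then 3.57 and 3.46, in siPFDN5. All 6 after serum lie below all 6 before it on this scale, and the share of genes with introns doing so was not counted. The fit, in contrast, scales each library to its own intronic counts, whose share was lower in the libraries labelled siPFDN5 after serum. For JAG1 the intronic counts rose by 0.90 in siControl (SE 0.21, adjusted p = 0.013) and by 0.94 in siPFDN2 (SE 0.22, adjusted p = 0.01), and the value in siPFDN5 was 0.12 (SE 0.22, adjusted p = 0.71). On the same scale JAG1 had 5.60 and 4.61 in siControl before serum, against 13.6 and 7.78 after it. In siPFDN2 these values were 4.09 and 4.45, then 7.75 and 6.75, and in siPFDN5 they were 5.75 and 4.96, then 3.75 and 3.49. The siControl and siPFDN2 libraries after serum lie above all 6 before serum, and the 2 labelled siPFDN5 after serum lie below them. Here too the share of genes with introns that show this was not counted. Of the siControl libraries after serum, the one with 13.6 also had the higher intronic share over all genes (20.6%), and the part of that share in the result was not tested. Between the libraries labelled siPFDN5 after serum and siControl after serum the intronic JAG1 signal fell by 0.89 (SE 0.22, adjusted p = 0.042), the single member called beside 3.8% of genes with introns, whereas its gene-body value was −0.08 (SE 0.13, adjusted p = 0.76). The difference of the siPFDN5 from the siControl intronic response was −0.78 for JAG1 (SE 0.30, adjusted p = 0.093) and was not called. The antisense gene AL050403.2 overlaps JAG1, and AL592301.1 overlaps NOTCH1. Counting used no strand, so their reads cannot be told apart.

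**Figure D5:**
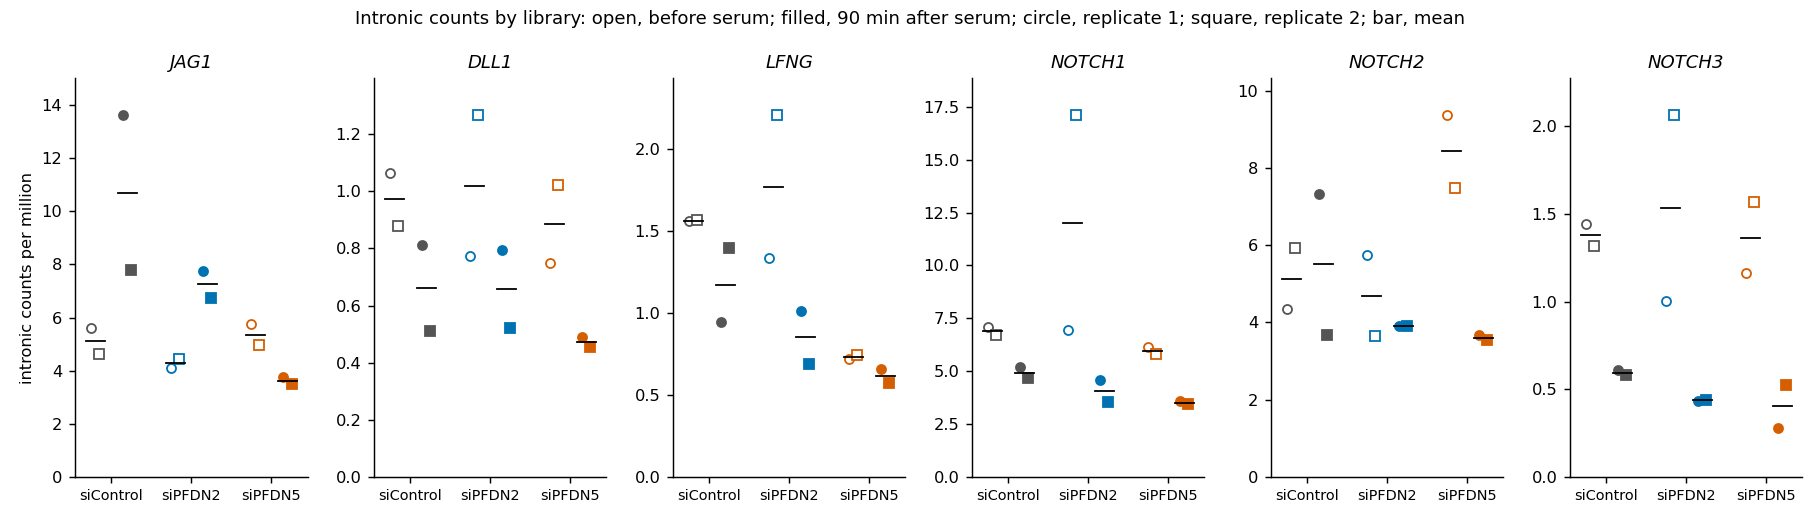
Intronic counts as TMM-scaled CPM of gene-body counts (linear axes from 0) for the 6 genes with enough intronic counts, by siRNA, before serum (open) and 90 min after serum (filled), with circles and squares for replicates 1 and 2 and bars for group means. NOTCH3 lies between 1.00 and 2.07 before serum and between 0.281 and 0.608 after it.

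The rest of the pathway was described from a list of 54 further genes, of which 49 were tested. In the averaged serum response 3 were called, 1 higher and 2 lower, beside the 14.9% of all genes, with a median log2 fold change of −0.06 over the 49. Without replicate 2 of siPFDN2 before serum 11 of 48 were called (5 higher, 6 lower), beside 27.5% of all genes, and with the G+C trend removed 14 of 49 (7 higher, 7 lower), beside 28.4%. DTX4, a Deltex-family E3 ligase that acts on Notch, fell by 0.94 (SE 0.10, adjusted p = 0.0001), and it was called in all 24 alternatives. Under siControl, it had 13.4 and 14.2 CPM before serum, then 7.07 and 8.27 CPM once serum was back. The ligand gene DLL4 fell by 0.86 (SE 0.15, adjusted p = 0.003), with 0.931 to 1.41 CPM before serum and 0.497 to 0.901 after it. The receptor gene NOTCH4 rose by 0.62 (SE 0.14, adjusted p = 0.012), with 0.793 to 1.12 CPM before serum and 1.15 to 1.68 after it. DLL4 and NOTCH4 are best known from endothelium. The endothelial markers PECAM1, CDH5 and VWF summed to 1.29 to 1.86 CPM before serum and 1.40 to 2.37 after it, and CDH5 alone to 0.035 to 0.133 and 0.226 to 0.441. Their part in these 2 results was not tested.

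In siControl 3 of the 49 were called, beside 2.87% of all genes: SPEN, a corepressor that binds RBPJ, rose by 0.86 (SE 0.20, adjusted p = 0.041), and DTX4 (−0.85) and DLL4 (−1.07) fell. In siPFDN2 DTX4 (−1.15) and DLL4 (−1.07) fell, beside 3.26% of all genes. The SPEN call was lost in 15 of 25 alternatives, and that of DLL4 in 15 of 24 in siControl and 19 of 24 in siPFDN2. In siPFDN5 6 of 49 were called, close to the share of all genes (12.2%). The γ-secretase subunit genes APH1A (0.53) and PSENEN (0.62) and the receptor gene NOTCH4 (0.84) rose, and the coactivator genes MAML2 (−1.44) and MAML3 (−1.04) and DTX4 (−0.81) fell. MAML2 had 25.5 and 19.5 CPM under siPFDN5 in starved cells, then 7.85 and 8.73 in the libraries labelled siPFDN5 after serum, against 10.5 and 14.4 and then 32.3 and 12.2 in siControl. The 2 siControl libraries after serum thus disagree for MAML2. By role, none of the 5 further glycosyltransferase genes and none of the 4 further HES and HEY genes tested was called in any of the 10 comparisons of the full fit. With the G+C trend removed RFNG, POGLUT1, HES6, HEYL and HES2 were each called in at least 1 comparison, and without replicate 2 of siPFDN2 before serum RFNG, POGLUT1, MFNG, HES6 and HES2 were. RBPJ was at 76.7 to 95.7 CPM in all libraries except replicate 2 of siPFDN2 before serum, where it was at 49.2.

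Over the 12 libraries, and outside the pathway list, the genes whose log2 CPM was most like that of JAG1 were SLC20A1 (Pearson r = 0.965), CFLAR (0.959) and HRH1 (0.952). For HES1 they were BCL6 (0.888), AC072022.1 (0.876), which overlaps BCL6 and shares its reads, and BCL2L11 (0.866). The ranking covered 12069 genes whose mean log2 CPM reached 3, and it is a description, since libraries of a group share their treatment and their scaling. SLC20A1 had a mean of 116 CPM before serum and 174 after it, and BCL6 had 14.9 and 20.9.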

How the data were processed

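RNA-seq libraries of 12 HCT116 samples were grouped, and replicates numbered, by their titles. Gene-body and exon counts were deposited by the authors. Per the file headers they came from featureCounts 1.5.2 on Ensembl annotation release 87 of GRCh38, counting fragments with both ends mapped, once for each gene they touch, and with no strand option. The submitters' processing notes name HISAT2 0.12.2, featureCounts 1.5.2, kallisto 0.43 and GRCh38.p7, with no role given. The authors deposited a transcript file for each sample, named for TPM, whose values are estimated counts. Another 6 columns of the count tables match no label and were not used here.

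Names and G+C content of the longest transcript came from GENCODE release 29 (57447 of 58051 genes matched), and promoters from RefSeq. Gene-body counts were tested with edgeR 4.0.16 (filterByExpr, TMM scaling, robust quasi-likelihood fit of 6 group means, two-sided), with p-values adjusted by Benjamini-Hochberg over all 27915 tested genes and genes called under 0.05. There were 10 comparisons. SE values were derived from the fold change and the test statistic. Log2 CPM used a prior count of 2. Intronic counts are gene-body minus exon counts of genes with several exons. The G+C trend was a lowess (span 0.3) of each library, added as an offset. DESeq2 1.42.0 and the other alternatives are given at the end. Both tools were tested on simulated counts. Named genes are the members, PFDN2, PFDN5, pathway genes called in a comparison (up to 3 in each direction), and for HES1 and JAG1 the 3 most similar genes. The members and lists were chosen with earlier results of these data known. The result of 1 list of markers of other cell types is not reported here.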

Additional observations from a re-analysis of the deposited data

How the results depend on the processing

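Counts of members called moved with the setting as follows, against 0, 1, 0 and 4 for the serum response in siControl, siPFDN2, siPFDN5 and on average. DESeq2 gave 2, 6 and 2 for the 3 siRNAs, the G+C trend removed 3, 3 and 5, no filter 1, 5 and 3 (3.36%, 10.9% and 11.02% of all genes), intronic counts 2, 3 and 1 (8.63%, 11.8% and 27.8%), and a fit of the compared libraries alone 2, 0 and 6 (4.03%, 0.143% and 54.5%). Scaling by library size gave 4 (12.2%) and transcript estimates 2 (2.36%) in siPFDN2. Exon counts gave 2 on average (10.96%), and leaving out both libraries labelled siPFDN5 after serum (an alternative chosen after seeing the data) gave 0 in siPFDN2 (1.91%) and 2 on average (5.67%). Where the other comparisons had 0, no filter gave 2 for siPFDN2 before serum (2.23%), 1 and 2 for siPFDN5 before and after serum (2.13% and 5.42%), and 2 for the siPFDN2 difference (1.37%). DESeq2 gave 1 for siPFDN5 before serum, the G+C trend removed 1 and 2 before and after serum, the compared libraries alone 1, 2 and 2 (siPFDN5 before, after and difference, with 19.5%, 7.81% and 14.9%), and intronic counts 1 after serum. The other settings stayed within 1.5 times of these counts. With each library left out in turn the ranges were 0 to 4 (siControl), 0 to 8 (siPFDN2), 0 to 5 (siPFDN5), 2 to 8 (average), 0 to 5 and 0 to 1 (siPFDN2 before and after serum), 0 to 1 and 0 to 3 (siPFDN5), and 0 to 4 and 0 to 2 (differences). Counts of 5 to 8 came without one or the other replicate of siPFDN2 before serum. Without its replicate 1, HES4 in siPFDN2 fell by 0.40 (adjusted p = 0.043).

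Of 15 correlations by replicate number, 1 for each pair of groups, 4 exceeded 0.1 (range −0.32 to 0.59). These values do not settle whether replicate numbers pair the libraries. With the replicate block 3 members were called on average (13.3% of all genes) and 1 in siPFDN2 (2.74%). With the replicate block and the G+C trend removed the serum counts were 3, 3, 5 and 6 (5.40%, 5.62%, 26.5% and 26.0%), and 2 for siPFDN5 after serum (9.46%).

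Signs reversed for values that were not called in the fit of all libraries, and of these HES4 in siPFDN2 was called in either direction, by which replicate before serum was left out. NOTCH3 in siControl turned from −0.00 to 0.011 (10 counts in every library), 0.054 (exon counts), 0.075 (transcript estimates), 0.068 (G+C trend removed) and 0.075 (replicate block with it), and ranged from −0.15 to 0.11 with 1 library left out. HES4 in siPFDN2 was −0.11 by library size and ranged from −0.40 to 0.97 with 1 library left out. NRARP on average was 0.063 with the G+C trend removed, 0.062 with the replicate block as well, and −0.35 to 0.0065 with 1 library left out. HES1 in siPFDN5 ranged from −0.086 to 0.045 with 1 library left out. NOTCH2 on average was 0.0035 without the libraries labelled siPFDN5 after serum. With intronic counts, siPFDN5 against siControl after serum was 0.13 for NOTCH1 and 0.068 for NOTCH3, and the siPFDN5 difference was 0.52 and 0.26. Scaling by library size moved the median of all genes in the averaged serum response to −0.17. The causes were not tested. Depth limits HEY1.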
